A study of Mus musculus with 16 samples.

Results

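SPOP-mutant prostate organoids were compared with Control organoids in the absence of added androgen, by the places in the genome where ATAC-seq found open chromatin. Of the 16 libraries of the series, 8 enter this comparison: 4 of SPOPmut organoids and 4 of Control organoids, taken as every library that received the solvent ethanol (EtOH). Both genotypes are mouse prostate organoids, both carry the label sgNT, and both were kept for 24 h in organoid medium lacking mEGF. The other 8 libraries are the same genotypes with 10 nM dihydrotestosterone (DHT), a natural androgen, and enter below only as libraries that the EtOH comparison did not use. The labels give neither the SPOP allele nor its promoter, nor whether the 4 libraries of a genotype are separate cultures, so p-values measure the spread between these libraries, which may be technical.

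The SPOP protein hands substrates to a ubiquitin ligase built on cullin 3, and its mutations in human prostate cancer fall in the pocket that holds substrates. Several known substrates are chromatin and steroid receptor cofactors. Prostate organoids hold epithelial cells of luminal type, which line the duct, and of basal type, which lie beneath them. ATAC-seq cuts open DNA with a transposase, and a peak marks a stretch where cuts pile up, usually a promoter or an enhancer.

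The authors called peaks in each library on its own. The lists held 65106, 60661, 67005 and 60819 peaks in SPOPmut and 64258, 57245, 64521 and 63184 in Control, or 63398 ± 3166 and 62302 ± 3421 (SD, n = 4 each). The genotypes did not differ in list length beyond the spread between libraries (two-sided exact permutation p = 0.657). Merging all peaks of these lists that shared 1 bp or more gave 77990 regions, each scored in every library as called (a peak lies in it) or not. The lists hold no read counts, so the depth behind a call is unknown. After 5943 regions called in 1 library were set aside, 72047 regions remained, with a median width of 660 bp.

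Most open chromatin was shared: 44781 regions, or 62.2%, were called in all 8 libraries. In 3980 regions (5.52% of those tested) the peak was present in all 4 SPOPmut libraries and in no Control library. These are called gained below. In 3538 regions (4.91%) it was absent from every SPOPmut library and present in all 4 Control libraries, and these are called lost. Which of the counts was larger depended on the lists: with all lists held to the length of the shortest, regions gained numbered 3648 and regions lost 3673, and without Control replicate 2, which has the shortest list, 4028 and 4891. Gained regions had a median width of 500 bp and lost regions of 482 bp. Within its list, the median gained region stood at the 23.0 percentile of the caller's −log10 p and the median lost region at the 26.7 percentile, against 43.0 for all tested regions. The median separated region thus ranked lower in its list than the median tested region, a difference that was not tested.

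**Figure D1:**
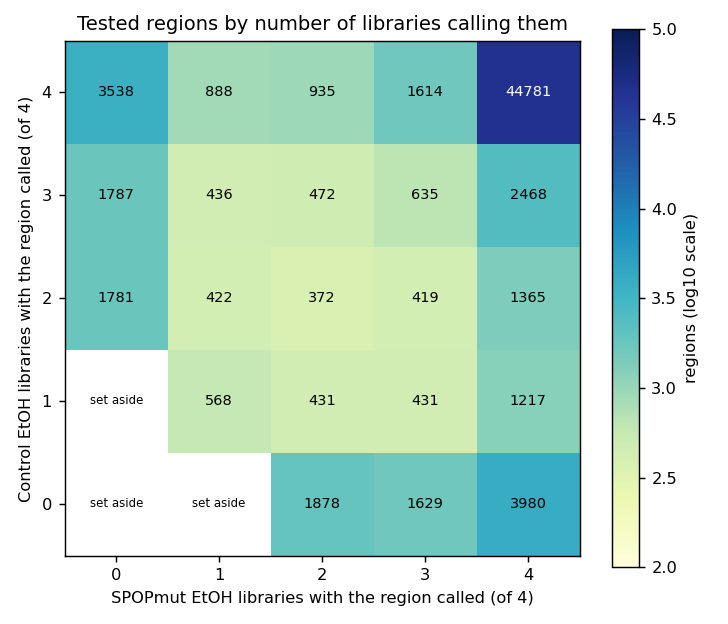
Number of tested regions by how many SPOPmut libraries (x axis, 0 to 4) and how many Control libraries (y axis, 0 to 4) called them, with colour on a log10 scale. The corner called in all 8 libraries holds 44781 regions, the lower right corner 3980 gained regions and the upper left corner 3538 lost regions, and regions called in fewer than 2 libraries were set aside.

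Gains and losses at gene starts are shown first by sequence, for the 3 gained and the 3 lost regions at a gene end whose peaks ranked highest in their lists. The gained ones lay at Plac8 (chr5:100571841-100572814), at Gsta3 (chr1:21240028-21241698), a glutathione transferase, and at Mgmt (chr7:136893871-136895178), which removes alkyl groups from guanine. Their lowest percentile over the 4 SPOPmut libraries was 85.5, 77.0 and 71.0 in that order. The lost ones lay at Isl1 (chr13:116309344-116310284), a LIM homeobox factor, at Ptn (chr6:36809138-36810406), the secreted growth factor pleiotrophin, and at Zfp78 (chr7:6362177-6363604), a zinc finger protein. Their lowest percentile over the 4 Control libraries was 81.5, 80.1 and 73.3. Each sequence below is a RefSeq promoter window of build GRCm38.p6, from 250 bases before to 50 after a start inside that region, 5′ to 3′ on the strand of the gene. Capitals mark matches, on either strand, to 8 motifs: GGGCGG, the box bound by Sp1 and its relatives; CCAAT, bound by NF-Y; TATAAA, the TATA box; AGATAA, bound by GATA factors; AGAACA, a half-site of steroid receptors; TGANTCA, bound by AP-1; TGTTTAC, bound by forkhead factors; and CCGGAAG, bound by ETS factors.
Plac8 (gained, chr5:100572156-100572455, minus strand): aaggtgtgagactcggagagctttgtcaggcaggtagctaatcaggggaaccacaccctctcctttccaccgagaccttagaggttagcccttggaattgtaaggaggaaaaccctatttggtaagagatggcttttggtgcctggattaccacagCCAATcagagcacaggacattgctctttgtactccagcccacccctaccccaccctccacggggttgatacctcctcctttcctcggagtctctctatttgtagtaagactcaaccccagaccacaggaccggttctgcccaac
Gsta3 (gained, chr1:21240335-21240634, plus strand): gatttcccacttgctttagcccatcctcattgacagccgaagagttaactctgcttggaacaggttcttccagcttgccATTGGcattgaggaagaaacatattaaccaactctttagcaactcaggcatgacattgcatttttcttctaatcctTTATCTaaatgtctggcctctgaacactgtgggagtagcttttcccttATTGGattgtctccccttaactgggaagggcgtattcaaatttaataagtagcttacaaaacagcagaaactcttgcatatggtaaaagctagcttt
Mgmt (gained, chr7:136894336-136894635, plus strand): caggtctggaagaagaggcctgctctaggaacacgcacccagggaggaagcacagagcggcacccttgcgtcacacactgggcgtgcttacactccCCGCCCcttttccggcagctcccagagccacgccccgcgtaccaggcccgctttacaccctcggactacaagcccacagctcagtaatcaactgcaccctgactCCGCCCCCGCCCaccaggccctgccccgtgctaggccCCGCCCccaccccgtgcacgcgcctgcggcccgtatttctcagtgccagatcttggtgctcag
Isl1 (lost, chr13:116309639-116309938, minus strand): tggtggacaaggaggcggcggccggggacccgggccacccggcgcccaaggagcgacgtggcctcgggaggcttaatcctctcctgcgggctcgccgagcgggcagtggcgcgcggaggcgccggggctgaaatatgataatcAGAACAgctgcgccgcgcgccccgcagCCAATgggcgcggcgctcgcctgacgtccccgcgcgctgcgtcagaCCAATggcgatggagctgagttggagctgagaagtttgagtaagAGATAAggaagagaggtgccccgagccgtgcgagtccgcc
Ptn (lost, chr6:36810130-36810429, minus strand): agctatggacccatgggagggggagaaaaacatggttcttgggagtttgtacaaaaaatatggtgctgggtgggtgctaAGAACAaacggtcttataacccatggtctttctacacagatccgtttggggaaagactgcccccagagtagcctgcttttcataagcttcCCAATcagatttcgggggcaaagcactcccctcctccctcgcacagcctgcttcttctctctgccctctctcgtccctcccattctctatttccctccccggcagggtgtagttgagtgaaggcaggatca
Zfp78 (lost, chr7:6363058-6363357, plus strand): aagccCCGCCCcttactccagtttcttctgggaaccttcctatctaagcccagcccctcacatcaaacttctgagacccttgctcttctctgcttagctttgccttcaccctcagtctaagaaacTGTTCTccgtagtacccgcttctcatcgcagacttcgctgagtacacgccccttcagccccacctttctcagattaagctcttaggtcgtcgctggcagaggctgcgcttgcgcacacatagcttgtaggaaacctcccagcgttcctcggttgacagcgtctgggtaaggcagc

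At Plac8, Gsta3, Mgmt and Ptn regions other than the one over the start differed as well, while Isl1 and Zfp78 were not among the genes tested. Plac8 had 6, 6, 6 and 5 called regions in SPOPmut, against 2 in every Control library, and Gsta3 had 5, 6, 6 and 4 in SPOPmut, against 1 in every Control library. Mgmt had 2 in every SPOPmut library and 0 in every Control library, and Ptn had 0 in every SPOPmut library and 2 in every Control library. The printed windows hold 5 CpG pairs at Plac8, 2 at Gsta3 and 20 at Mgmt, and 37 at Isl1, 6 at Ptn and 13 at Zfp78. Boxes of the Sp1 type, 4 in number, stand in the Mgmt window, 2 of them side by side, and CCAAT stands in the windows of Plac8, Gsta3, Isl1 and Ptn.

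Over all promoter windows that lay in separated regions, the gained and the lost starts had fewer CpG pairs than starts that stayed open. The median window held 9.5 CpG pairs among 96 gained windows (86 genes) and 16 among 174 lost windows (152 genes), against 22 among 10316 windows called in all 8 libraries and 4 among 10128 windows with no tested region. A TATA box was found in 24.0% of gained and 10.3% of lost windows. It was found in 6.05% of windows called in all 8 libraries, 19.4% of those with no tested region and 12.6% of all 21263 windows. The Sp1 box was found in 47.9% of gained and 55.7% of lost windows, against 69.1% of windows called in all 8 and 46.2% of all windows. Forkhead matches stood in 5.21% of gained and 1.72% of lost windows (3.01% of all), AP-1 matches in 6.25% and 8.05% (6.99% of all) and steroid receptor half-sites in 14.6% and 17.8% (16.2% of all). GATA matches stood in 11.5% and 5.17% (9.65% of all) and CCAAT in 36.5% and 42.0% (38.2% of all). ETS matches stood in 13.5% of gained and 4.60% of lost windows, against 20.1% of windows called in all 8 and 11.6% of all. These are descriptions of letters in short windows, several of which share a gene, and none was tested.

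Gained and lost regions were counted by their distance from gene starts, without a test. Of 8816 tested regions that cover a RefSeq start, 81 (0.919%) were gained and 147 (1.67%) were lost, and 92.1% were called in all 8 libraries, the highest share of the 7 distance classes. Between 1 and 10 kb from a start, 732 of 11598 regions (6.31%) were gained and 399 (3.44%) were lost. Lost regions were the more frequent from 50 to 100 kb, with 5.85% gained and 6.08% lost of 9763 regions. The same held from 100 to 500 kb, with 6.62% gained and 8.28% lost of 12046 regions. Beyond 500 kb the order was the other way, with 8.08% gained and 6.92% lost of 3628 regions. Chromosome 18 has no starts in the table used and is left out of these counts. By library, regions inside gene bodies made up 39.9 ± 0.283% of calls in SPOPmut and 39.3 ± 0.449% in Control (SD, n = 4 each), a difference in which no library overlapped (exact permutation p = 0.0286, adjusted over 3 location classes 0.0857). Regions within 1 kb of a gene end made up 20.2% in SPOPmut and 20.4% in Control, with an adjusted exact p of 0.8.

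**Figure D2:**
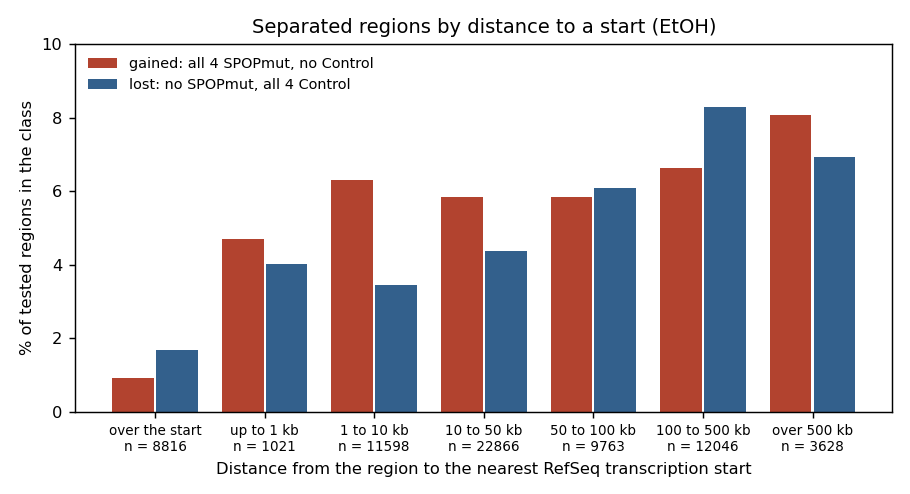
Percentage of tested regions that were gained (left bar) or lost (right bar) in SPOPmut, by distance to the nearest RefSeq start, with the number of regions in each class under the axis. Regions over a start separated least often (0.919% gained, 1.67% lost), and from 1 to 10 kb the gained bar stands at 6.31% against 3.44% for lost.

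Most separated regions stood alone: 74.4% of gained and 69.0% of lost regions had no separated neighbour of the same direction. Runs of at least 3 neighbouring regions that all separated the same way held 361 gained regions in 104 runs and 458 lost regions in 116 runs. The longest gained run had 7 regions at Plcb1, a phospholipase C that cleaves membrane phosphoinositides (chr2:135096795-135230798). The longest lost run had 11 regions around Il15, which encodes an interleukin, and Zfp330 (chr8:82243524-82744811). Further lost runs had 9 regions at Pcdh19, a protocadherin (chrX:133404397-133656681), and 8 each at Sema3a, a secreted axon guidance cue (chr5:12910728-13500198), and at Zfp462 (chr4:54910188-54980318).

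Genes were compared by the number of called regions assigned to each in each library, a region going to the nearest protein-coding gene body within 100 kb. Of 10704 genes with at least 2 regions, 1575 (14.7%) had more called regions in SPOPmut and 1052 (9.83%) had fewer, 2627 (24.5%) in all (limma with Benjamini-Hochberg adjustment, adjusted p under 0.05). In 28.3% of genes no library differed from its group, so the fitted error is close to 0 and the size of p carries little information. With a lower limit on the residual variance, an alternative chosen after seeing the data, 2557 of the 2627 calls remained, and for genes without spread the text gives the p of that fit. That fit called more genes than the main one, 2040 upward and 1445 downward, so it is not a stricter check on these calls. The groups did not overlap in 1497 genes with higher (14.0%) and 973 with lower counts (9.09%) in SPOPmut. With 4 libraries against 4 the exact permutation p cannot go below 0.0286 and its smallest adjusted value over all genes was 0.124, so that test calls 0 genes, while 4177 had an unadjusted limma p under 0.05. Upward calls outnumbered downward ones (59.95% of calls), but without Control replicate 2 1539 genes were called upward and 1501 downward. Another 2157 genes (20.2%) had the same count in all 8 libraries.

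The differences were spread thinly over many genes. Among genes with more regions in SPOPmut the median difference was 1.75 regions, and 522 differed by 1 to under 1.5 and 561 by 1.5 to under 2.5. Among genes with fewer regions the median difference was −2. A difference of 8 or more was reached by 15 genes upward and 24 downward. The 10 genes with the most gained regions held 2.48% of the gained regions at tested genes. The 10 genes with the most lost regions held 3.29% of the lost ones. A gained region stood at 2321 genes and a lost region at 1856, and 1675 genes had a single gained and 1353 a single lost one. Genes with more regions were called more often: 9.44% up and 6.99% down among genes with 2 or 3 regions, 22.3% up and 15.8% down among genes with 16 or more.

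The share of called regions shifted for whole chromosomes as well. The lists hold no read counts, so the copy number of a chromosome was not examined, and a change in it cannot be told apart here from one in open chromatin. Chromosome 2 held 8.41 ± 0.0495% of the called regions of a SPOPmut library and 7.02 ± 0.0522% of those of a Control library (SD, n = 4 each), a relative difference of 19.8%, and chromosome 15 held 17.4% more. Chromosome 14 held 2.88% in SPOPmut and 3.42% in Control, a difference of −15.8%, and chromosome 13 differed by −13.0%. The exact permutation test passed for 19 of 21 chromosomes, 9 higher and 10 lower in SPOPmut (p = 0.0286, the smallest that 4 against 4 libraries allow, adjusted p = 0.0316), and not for chromosomes 19 and X. Of the genes on chromosome 2, 31.3% had more and 3.27% fewer regions in SPOPmut, and on chromosome 14, 6.09% had more and 19.4% fewer. The part of these shifts in single genes was not tested, but each gene was also fitted after subtracting what the call rate of its chromosome in that library predicts. Of the 184 called genes chosen by rule for naming, 167 kept their direction and their call in that fit, and exceptions are given beside the gene. With only peaks of a signal of at least 400, 118 of the 184 kept their direction and their call, 52 calls were lost and 5 turned. The others, Foxa2, Gata2 and Boc among them, had under 2 regions at that signal and were not tested.

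**Figure D3:**
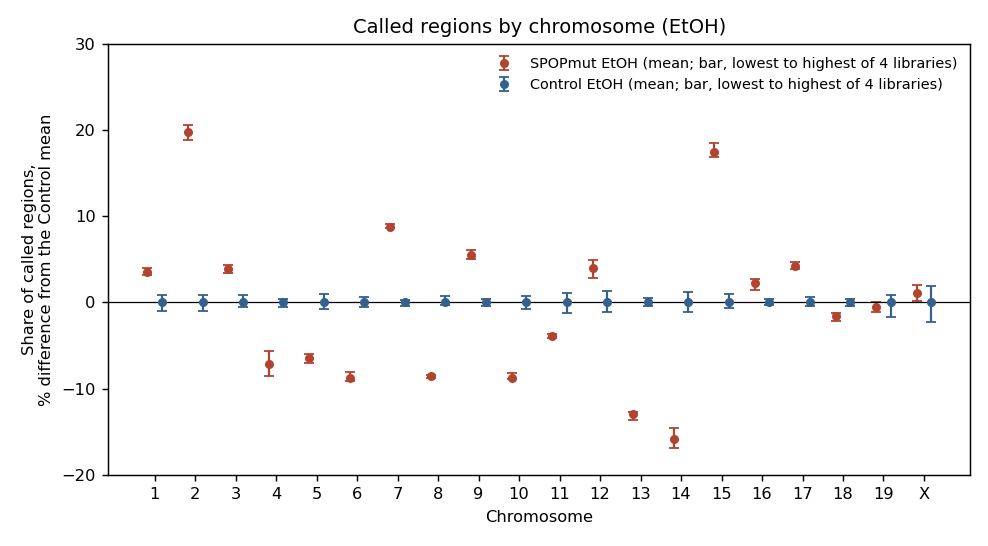
Share of called regions on each chromosome, as percent difference from the Control mean of that chromosome, with points for group means and bars from the lowest to the highest of 4 libraries (SPOPmut left, Control right; chromosome Y, with 18 regions, is left out). Chromosomes 2 (19.8%) and 15 (17.4%) lie highest and 14 (−15.8%) and 13 (−13.0%) lowest in SPOPmut.

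Spop itself (chr11:95414083-95493410) had 6 called regions in every SPOPmut and every Control library. A count of peaks cannot show a mutation, so it does not check the genotype labels. The labelled tissue was checked against epithelial markers. The basal keratin gene Krt5 had 4, 4, 4 and 3 regions in SPOPmut and 4, 3, 4 and 4 in Control, and Trp63, the basal master factor p63, had 21, 19, 21 and 20 against 21, 20, 20 and 21. Pbsn and Msmb, markers of differentiated prostate lumen, each had under 2 regions and were not tested.

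Several keratin and other luminal genes had more open regions in SPOPmut. Of 14 luminal markers tested by limma, 7 passed upward (50%, against 14.7% of all genes) and 0 downward (against 9.83%), with a median difference of 1.38 regions against 0 over all genes. At an unadjusted p under 0.05 they were 8 upward and 1 downward, and likewise with the variance limit. With equal list length 5 passed upward and 1 downward, and within 25 kb 5 and 0. With 10 kb either side of the gene body they were 4 and 0. With calls as a share of the library total they were 8 and 1, and with the chromosome rate subtracted 7 and 2. The median marker had 6.5 regions, and 17.8% of all genes with 4 to 7 regions passed upward. Krt18, a keratin of simple epithelium (chr15:102028216-102032026), had 6, 5, 5 and 5 regions in SPOPmut and 1 in every Control library (difference 4.25 ± 0.242, SE; limma adjusted p = 1.4e-05). Its partner Krt8 had 3, 2, 3 and 3 in SPOPmut, against 1 in every Control library (adjusted p = 0.00189, limma). Neither pair of groups overlapped. Both lie on chromosome 15, where 30.3% of genes passed upward, and with the chromosome rate subtracted the differences were 3.38 and 1.32 and still passed. Krt8 (chr15:101996711-102004342) lies close to Krt18, and regions between them went to the nearer gene, so their calls may not be independent. Tmprss2, an androgen-regulated protease gene, had 28, 28, 28 and 27 regions in SPOPmut, against 23, 21, 24 and 23 in Control (difference 5 ± 0.663, SE; limma adjusted p = 0.00171). Foxa1, a pioneer factor of prostate epithelium, had 12 in every SPOPmut library and 11, 10, 10 and 11 in Control (limma adjusted p = 0.00776). With the chromosome rate subtracted that difference was 0.94 and did not pass (adjusted p = 0.0792). The ETS factor gene Ehf had 25, 24, 26 and 25 regions in SPOPmut against 23, 19, 22 and 22 in Control, and its difference turned to −0.79 once the rate of chromosome 2 was subtracted. The Ehf call was also lost without any 1 of 5 libraries (adjusted p up to 0.131, limma). Krt19 and Cd24a, named because they complete the 7, averaged 10 and 4.5 regions in SPOPmut and 7.25 and 2.75 in Control. Hoxb13, a prostate homeobox gene, went the other way without passing, with 3, 3, 4 and 4 regions in SPOPmut and 5, 4, 5 and 5 in Control (limma adjusted p = 0.0519), and passed without Control replicate 2 (limma adjusted p = 0.0208).

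Markers of the proximal, progenitor-like luminal cells followed the same direction, with 5 of 14 up (35.7%) and 1 down (7.14%) and a median difference of 1. The shares of all genes were 14.7% and 9.83%. Krt7 (chr15:101412403-101427806), a keratin of ductal epithelium, had 9, 8, 9 and 8 regions in SPOPmut and 1, 0, 1 and 0 in Control (difference 8 ± 0.395, SE; limma adjusted p = 5.8e-06). All of its 9 regions were called in some SPOPmut library, and 6 of them separated the genotypes. Ly6a, the gene of the surface antigen Sca-1, had 6, 5, 6 and 6 regions against 4, 3, 4 and 4 in Control. Cd44, a hyaluronan receptor gene, had 31, 29, 31 and 30 in SPOPmut and 27, 25, 27 and 26 in Control, a difference that turned to −1.24 with the chromosome rate subtracted. Among 17 basal markers, 1 passed in each direction (5.88% each) with a median difference of 0. Itga6, an integrin that anchors basal cells to laminin, had 20, 16, 19 and 19 regions in SPOPmut against 13, 11, 13 and 12 in Control. Krt15 had 1 in every SPOPmut and 2 in every Control library. The secretory list had 2 of 4 tested members up: Sbp, which encodes a spermine-binding protein, had 6 regions in every SPOPmut library against 4, 4, 5 and 3, and Fam3b had 17, 16, 17 and 18 against 14, 14, 15 and 14. Without SPOPmut replicate 4 Fam3b did not pass (limma adjusted p = 0.0638).

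Markers of other cell types were examined because peaks from such cells would enter the same lists. In bulk samples, fewer cells of a type and less signal per cell cannot be told apart. Of 8 endothelial markers 0 passed upward, also at an unadjusted p under 0.05 and with the variance limit. Downward 2 passed (25%, against 9.83% of all genes), or 4 with the variance limit. With equal list length 1 passed upward and 3 downward, and with the chromosome rate subtracted 0 and 4. The summed calls of this list ran from 43 to 51 in SPOPmut and from 53 to 56 in Control, with no member at 0 in either genotype. The widest gap was at Cdh5, the VE-cadherin gene (chr8:104101613-104144504), with 1 region in every SPOPmut and 6 in every Control library (limma adjusted p with the variance limit 1.1e-16). Stromal markers passed 3 up and 2 down of 9, with sums of 22 to 29 in SPOPmut and 22 to 30 in Control and no member at 0. Zeb1, a repressor of epithelial genes, had 1, 1, 1 and 2 regions against 5, 4, 4 and 5 in Control, and the proteoglycan gene Dcn had 1, 0, 0 and 0 against 2 in every Control library. Acta2, smooth muscle actin, had 2 in every SPOPmut and 1 in every Control library, one of them gained over its start. Of the immune list, 4 of 12 markers could be tested, and Ptprc, the CD45 gene, had 5 in every SPOPmut and 4 in every Control library. Neuroendocrine markers passed 2 up and 0 down of 5 (1 down at an unadjusted p under 0.05 and with the variance limit). Scg2, secretogranin II, had 5, 5, 5 and 4 regions in SPOPmut and 0 in every Control library, and Foxa2 had 2, 1, 2 and 1 against 0. The defining markers Chga, Chgb and Insm1 each had under 2 regions and were not tested. Of 6 seminal vesicle and urothelium markers tested, 2 passed upward (33.3%, against 14.7% of all genes) and 1 downward (16.7%, against 9.83%). The last was Grhl3, whose values stand below with its family. Upk1b had 2 regions in every SPOPmut and 0 in every Control library, and Pparg, a lipid-sensing nuclear receptor of urothelium, had 9 in every SPOPmut library against 6, 4, 5 and 6. The part of other cells in any gene result was not tested.

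**Figure D4:**
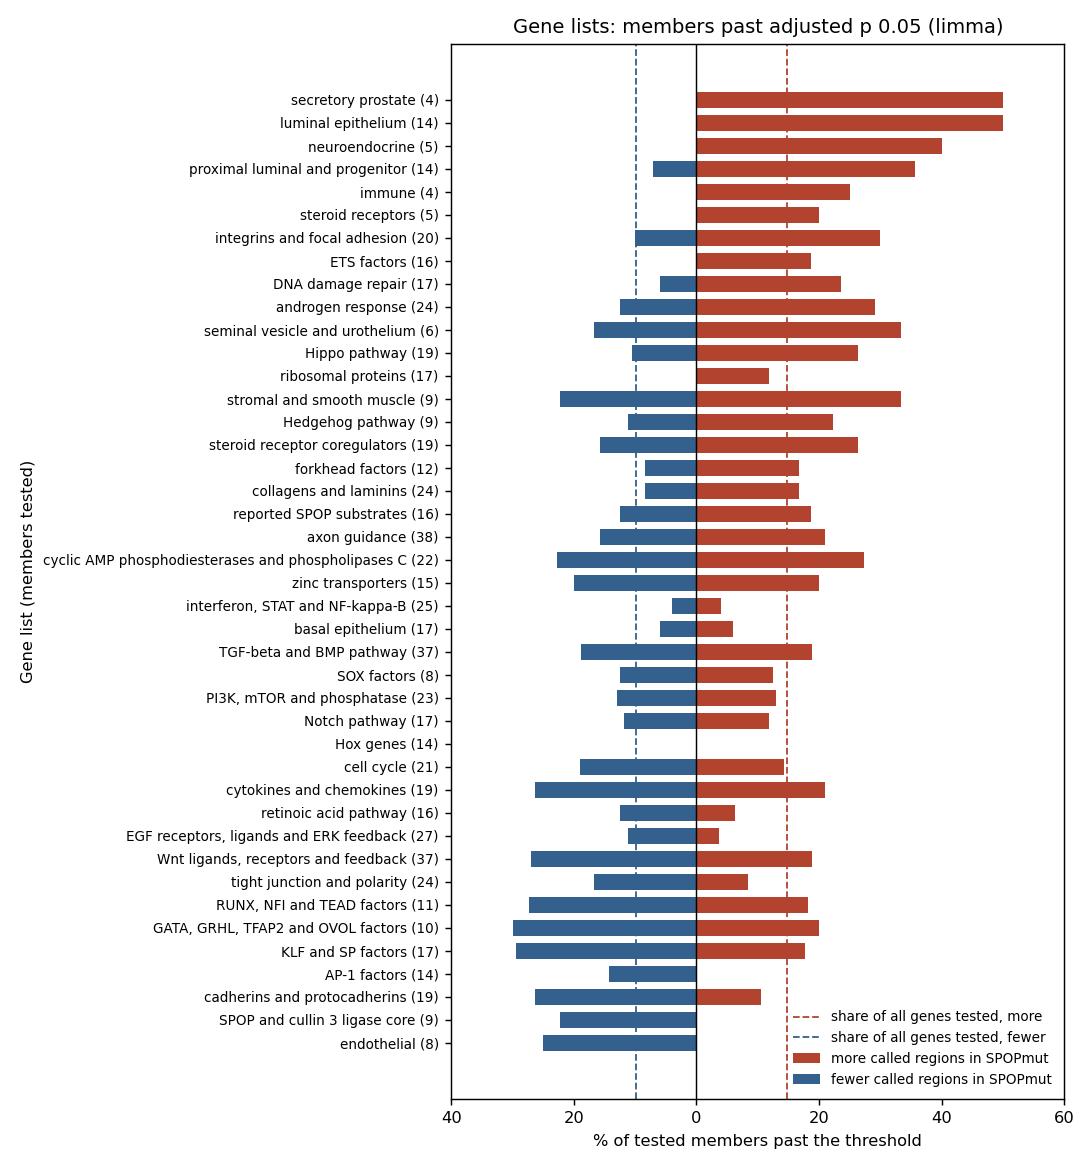
Percentage of tested members of each of 42 gene lists with more (right of 0) or fewer (left of 0) called regions in SPOPmut, with the number tested in parentheses and dashed lines at the shares of all genes tested (14.7% and 9.83%). Luminal epithelium stands at 50% up and 0 down, and the endothelial list at 25% down and 0 up.

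Of 9 tested genes of the ligase core around SPOP, limma passed 0 upward (against 14.7% of all genes) and 2 downward (22.2%, against 9.83%). Upward there were 2 at an unadjusted p under 0.05 and 0 with the variance limit. With equal list length or within 25 kb, 0 passed upward and 1 downward. With 10 kb either side of the gene body 2 passed upward and 1 downward. With calls as a share of the library total they were 2 and 2, and with the chromosome rate subtracted 2 and 3. Cul3, the cullin scaffold, had 1 region in every SPOPmut and 2 in every Control library, and Cand1, which exchanges substrate adaptors, had 4 in every SPOPmut library against 7, 5, 6 and 6. The Cand1 difference became 0.25 when regions were limited to 25 kb. Of 16 genes encoding reported SPOP substrates, 3 passed upward and 2 downward, with a median difference of −0.25, close to the shares of all genes. Ncoa3, a p160 coactivator and substrate (chr2:165992637-166073242), had 7, 7, 8 and 8 regions in SPOPmut and 5, 4, 4 and 4 in Control (difference 3.25 ± 0.37, SE; limma adjusted p = 0.000739). Myc (chr15:61985341-61990361), a growth-promoting transcription factor, had 20, 18, 20 and 20 against 16, 16, 14 and 15 in Control (limma adjusted p = 0.00388). With the chromosome rate subtracted the Myc difference was 1.21 and did not pass, whereas that of Ncoa3 was 1.98 and did. With only peaks of a signal of at least 400 the reverse was found: Myc passed (difference 4) and Ncoa3 did not (difference 1, limma adjusted p = 0.235). Dek, a chromatin protein, had 1, 1, 1 and 2 regions in SPOPmut and 4, 4, 3 and 3 in Control, and Egr2 had 3 in every SPOPmut and 5 in every Control library. Trim24, a chromatin reader and substrate, did not pass with 6, 6, 6 and 5 against 7, 6, 6 and 7 in Control.

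Genes of the androgen axis were called in both directions in these cultures without added androgen. Of 24 androgen response genes tested, 7 passed upward (29.2%, against 14.7% of all genes) and 3 downward (12.5%, against 9.83%). Their median gene had 12 regions, and 21.0% of all genes with 8 to 15 regions passed upward and 13.6% downward. They held 21 gained and 16 lost regions, with a median difference of 0.125. The balance depended on the setting: with equal list length 5 passed upward and 8 downward. With calls taken as a share of the library total they were 7 and 6. Within 25 kb they were 8 and 3, with 10 kb either side of the gene body 8 and 4, and with the chromosome rate subtracted 8 and 4. Besides Tmprss2, Ank, a pyrophosphate transporter, had 25, 23, 26 and 20 regions in SPOPmut and 15, 15, 15 and 14 in Control (difference 8.75 ± 1.31, SE; limma adjusted p = 0.0028). Zfp36l2, an RNA-binding decay factor, had 22, 21, 22 and 22 regions against 19, 18, 19 and 19. Downward went Ell2, an elongation factor, with 10, 10, 11 and 11 against 14, 13, 16 and 15, and Steap4, a metal reductase, with 2, 2, 1 and 1 against 4, 3, 3 and 3 and one lost region over its start. Fkbp5, a receptor co-chaperone and classical androgen target, had 10, 9, 10 and 9 regions in SPOPmut and 7, 6, 8 and 8 in Control, a call lost without SPOPmut replicate 1 or 3 (limma adjusted p up to 0.084). Of 19 coregulators 5 passed upward (26.3%, against 14.7% of all genes) and 3 downward (15.8%, against 9.83%). Smarca4, the chromatin remodelling ATPase, had 5 in every SPOPmut library against 3, 2, 3 and 3. Zmiz1, a transcriptional coactivator (chr14:25457875-25666743), had 26, 27, 28 and 25 regions in SPOPmut and 36, 34, 36 and 36 in Control (difference −9 ± 0.793, SE; limma adjusted p = 0.000186). Ncoa2, a paralogue of Ncoa3, had 5, 5, 6 and 5 against 9, 6, 9 and 8 in Control, but with only peaks of a signal of at least 400 the difference was 2.25 in the other direction and passed. Without any 1 of 6 libraries the Ncoa2 call was lost (limma adjusted p up to 0.21). Of the steroid receptors, Esr1, estrogen receptor alpha, had 21, 21, 20 and 21 regions in SPOPmut against 17, 17, 19 and 17, and the other 4 tested did not pass.

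Among transcription factor families, Hox genes, which set position along the body axis, had 0 of 14 members passing in either direction by limma. At an unadjusted p under 0.05 and with the variance limit they were 0 up and 1 down. With equal list length 1 passed in each direction, and with the chromosome rate subtracted 0 upward and 4 downward. With 10 kb either side of the gene body 2 AP-1 genes passed upward and 1 downward. In the main fit AP-1 genes had 0 up, also at an unadjusted p under 0.05 and with the variance limit, and 2 down of 14. These were Maf, with 10, 9, 10 and 10 regions in SPOPmut against 12, 11, 13 and 12 in Control, and Fos, with 10 in every SPOPmut and 11 in every Control library, which did not pass with the variance limit (limma adjusted p = 0.159). KLF and SP factors split 3 up and 5 down of 17 (17.6% and 29.4%, against 14.7% and 9.83% of all genes). Klf4, a factor of epithelial differentiation, had 7, 6, 8 and 7 regions in SPOPmut against 10, 9, 10 and 10 in Control, and Klf5, which acts in epithelial growth, had 10, 9, 10 and 10 against 14, 11, 13 and 12. After subtraction of the chromosome rate Klf4 still passed (−2.28) and Klf5 did not (−1.04), and Klf5 was also lost without any 1 SPOPmut library (limma adjusted p up to 0.0658). In the same family Sp1, a general activator whose binding letters are given above, had 8 in every SPOPmut library against 2, 2, 4 and 3. TFAP2 and GRHL factors also split: Tfap2c had 13, 13, 13 and 12 regions in SPOPmut against 9, 7, 9 and 9, while Grhl3, an epidermal barrier factor, had 8 in every SPOPmut library against 11, 10, 11 and 11. Gata6, an endodermal factor, had 0 in every SPOPmut library against 3, 2, 2 and 3 in Control, and Gata2, a zinc finger factor, had 1 in every SPOPmut library against 2, 3, 3 and 3. Of 16 ETS factors limma passed 3 up and 0 down, or 4 up and 1 down at an unadjusted p under 0.05 and 5 up and 2 down with the variance limit. Ets1 had 12 in every SPOPmut library against 10, 8, 10 and 9, and Etv5 had 8, 7, 8 and 7 against 6 in every Control library. Erg, the ETS gene rearranged in many human prostate cancers, did not pass with 5, 4, 6 and 4 against 5, 6, 7 and 7 in Control (limma adjusted p = 0.149). It passed downward with the variance limit (limma adjusted p = 0.00802) and with the chromosome rate subtracted (−1.76, limma adjusted p = 0.0318). Of the NFI factors, which bind next to Foxa1, Nfia had 13, 12, 14 and 12 regions in SPOPmut against 17, 17, 17 and 16, and Nfic had 8 in every SPOPmut library against 11, 10, 12 and 12. Sox21 had 1 in every SPOPmut library against 4, 3, 4 and 4, and Sox13 had 4 in every SPOPmut library against 1, 1, 2 and 1.

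In the Wnt pathway, secreted Wnt ligands bind Frizzled receptors and release beta-catenin to TCF factors. Of 37 genes tested, 7 passed upward (18.9%, against 14.7% of all genes) and 10 downward (27.0%, against 9.83%). The median gene of this list had 8 regions, against 4 over all tested genes, and 21.0% of all genes with 8 to 15 regions passed upward and 13.6% downward. The R-spondin receptors of the pathway, which raise Wnt sensitivity, moved apart. Lgr4 (chr2:109917647-110014257) had 15, 16, 16 and 14 regions in SPOPmut and 8, 8, 9 and 9 in Control (difference 6.75 ± 0.542, SE; limma adjusted p = 0.00011). Lgr6 (chr1:134983300-135105374) had 11, 7, 11 and 8 in SPOPmut and 18, 15, 18 and 19 in Control (difference −8.25 ± 1.30, SE; limma adjusted p = 0.00384). Neither gene's groups overlapped. Lrp5, a Wnt co-receptor, had 12, 13, 12 and 12 regions against 9, 7, 10 and 10. Tcf7l2, the nuclear effector, had 19, 15, 19 and 16 in SPOPmut against 25, 22, 26 and 26, and Znrf3, a ligase that removes Frizzled, had 10, 9, 13 and 10 against 16, 14, 17 and 16. Wnt7b had 25, 24, 27 and 23 regions against 22, 21, 22 and 21, and its difference turned to −0.80 with the chromosome rate subtracted. It was also lost without any 1 of 4 libraries (limma adjusted p up to 0.128).

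Notch is a receptor pathway between neighbouring cells, and Hedgehog a secreted signal to GLI factors. In the Notch list 2 of 17 passed upward and 2 downward. Rbpj, the DNA-binding effector of Notch, had 6, 5, 6 and 5 regions in SPOPmut against 10, 10, 9 and 8 in Control, and Numb, an inhibitor of Notch, had 3, 2, 3 and 2 against 5, 5, 4 and 5. The receptor gene Notch3 had 9, 9, 10 and 10 against 8, 7, 8 and 8. Of 9 Hedgehog genes 2 passed upward and 1 downward: the coreceptor gene Boc had 0 in every SPOPmut and 2 in every Control library, its relative Cdon had 5 in every SPOPmut and 4 in every Control library, and Sufu, which restrains GLI factors, had 13, 12, 12 and 12 against 10, 10, 11 and 11.

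TGF-beta and BMP genes passed 7 up and 7 down of 37 (18.9% each, against 14.7% and 9.83% of all genes). The receptor-activated SMADs, which carry the signal to the nucleus, did not move together. Smad3 had 34, 31, 33 and 30 regions in SPOPmut and 26, 24, 28 and 26 in Control (difference 6 ± 1.19, SE; limma adjusted p = 0.00945). Smad1, the BMP effector, had 8, 7, 8 and 8 against 12, 10, 12 and 12 in Control (difference −3.75, limma adjusted p = 0.00233), and Smad2 had 12, 10, 10 and 10 against 15, 13, 13 and 12. For Smad2 the groups touched at 12, and with peaks of a signal of at least 400 its difference was 1.5 and did not pass. Smad2 was also lost without any 1 of 6 libraries (limma adjusted p up to 0.114). Bmp2, a ligand, had 14, 10, 13 and 13 regions in SPOPmut against 8, 9, 9 and 9, though not past the threshold once the chromosome rate was subtracted (1.53) or without Control replicate 1 (limma adjusted p = 0.0565). Ltbp2, which resembles the binding proteins of latent TGF-beta, had 12, 10, 12 and 11 against 7 in every Control library, and the co-receptor gene Tgfbr3 had 7, 6, 7 and 5 against 10, 8, 11 and 11.

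The EGF family signals through ERK kinases, and the medium of these cultures lacked mEGF in both genotypes. Of 27 EGF receptor, ligand and ERK feedback genes, 1 passed upward (3.7%, against 14.7% of all genes) and 3 downward (11.1%, against 9.83%). The one upward was Spry1, a feedback inhibitor of ERK, with 4 in every SPOPmut library against 3, 2, 2 and 2. Met, the hepatocyte growth factor receptor gene, had 16, 17, 18 and 16 regions in SPOPmut against 20, 19, 19 and 19 in Control. With the rate of chromosome 6 subtracted the Met difference was −1.29 and did not pass (limma adjusted p = 0.162). In the PI3K list, 3 of 23 passed in each direction, and the larger differences were downward. Pik3r1, the regulatory subunit p85, had 8, 6, 9 and 6 against 13, 11, 13 and 12, and Irs2, an insulin receptor adaptor, had 10, 10, 10 and 9 against 14 in every Control library. Akt1, Tsc2 and Irs1 each differed by 1 region upward, Irs1 not passing with the variance limit (limma adjusted p = 0.0546).

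Hippo pathway genes, whose kinases restrain the YAP coactivator and TEAD factors, passed 5 up and 2 down of 19. These were 26.3% and 10.5%, against 14.7% and 9.83% of all genes. The median gene of this list had 8 regions, and 21.0% of all genes with 8 to 15 regions passed upward and 13.6% downward. Stk3, the MST2 kinase, had 15, 13, 15 and 13 regions in SPOPmut and 9, 7, 7 and 7 in Control (difference 6.5 ± 0.74, SE; limma adjusted p = 0.000739). Tead1 had 16, 17, 17 and 17 against 13, 12, 13 and 13, and Amotl1, a YAP-binding angiomotin, had 15, 13, 14 and 13 against 11, 10, 11 and 11. The giant cadherin genes went down, Fat1 with 16, 15, 15 and 15 against 19, 17, 19 and 19 and Fat4 with 6, 6, 5 and 6 against 8, 7, 8 and 8.

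**Figure D5:**
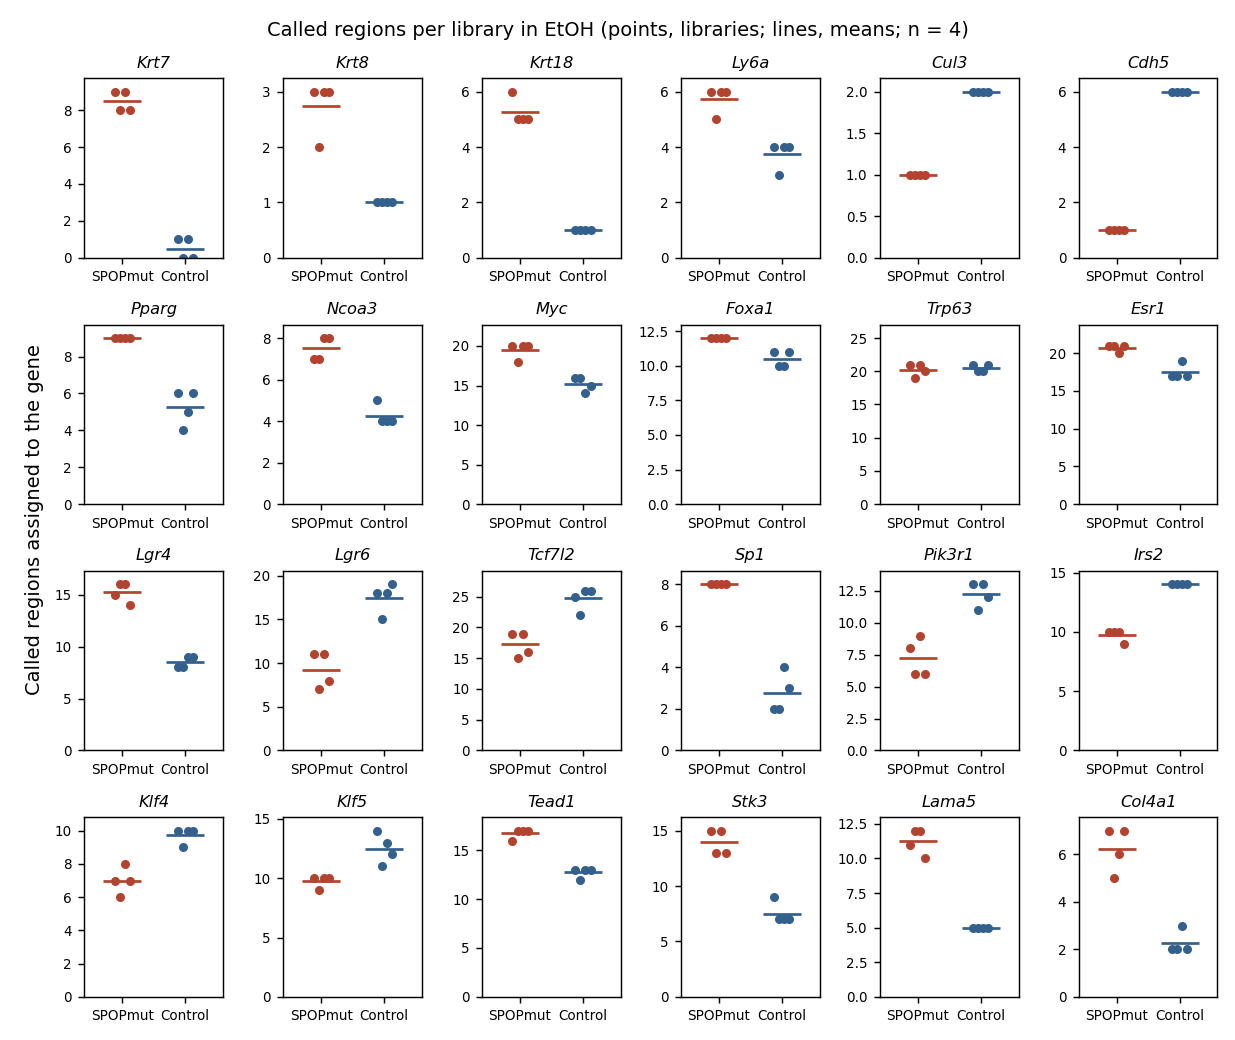
Called regions assigned to 24 named genes in each library, SPOPmut left and Control right, with a line at the mean of 4 libraries and each y axis starting at 0. Krt7, Krt8 and Krt18 are higher in every SPOPmut library, Cdh5 (1 against 6) is lower, and the genotypes overlap at Trp63.

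Adhesion and matrix genes were called in both directions. Of 20 integrin and focal adhesion genes 6 passed upward (30%, against 14.7% of all genes) and 2 downward (10%, against 9.83%). Ptk2, the focal adhesion kinase, had 18 in every SPOPmut library against 14, 12, 14 and 13, and Parva, an actin linker of integrins, had 16, 14, 16 and 15 against 11 in every Control library. Of 19 cadherin-related genes 2 passed upward (10.5%) and 5 downward (26.3%), against 14.7% and 9.83% of all genes. They held 10 gained and 21 lost regions. Pcdh19 (chrX:133582860-133689044) had 1 in every SPOPmut library and 11, 10, 11 and 11 in Control (difference −9.75 ± 0.242, SE; limma adjusted p = 7.5e-08), and Cdh13 had 29, 25, 27 and 24 against 33, 30, 32 and 32. Cdh13 did not pass without Control replicate 1 (limma adjusted p = 0.0581). Ctnnd2, delta-catenin, went the other way with 14 regions in every SPOPmut and 5 in every Control library. Laminin and collagen genes of the basement membrane were among those up: Lama5 had 11, 12, 12 and 10 against 5 in every Control library, Lamc3 had 7, 6, 7 and 5 against 2, 1, 2 and 2, and Col4a1 had 7, 5, 6 and 7 against 2, 2, 3 and 2. Over the whole list of 24, 4 passed upward (16.7%) and 2 downward (8.33%), close to the shares of all genes (14.7% and 9.83%). Lama4 was one of the pair down, with 0 in every SPOPmut and 2 in every Control library. Lama5 and Lamc3 lie on chromosome 2, where 31.3% of genes passed upward. With the chromosome rate subtracted their differences were 4.34 and 3.39 and still passed. In tight junctions 2 of 24 passed upward and 4 downward, Ocln, occludin, having 7 in every SPOPmut library against 5, 4, 5 and 4.

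Axon guidance genes, which also act in epithelial branching, held 28 gained and 35 lost regions, with 8 of 38 up (21.1%) and 6 down (15.8%). The shares of all genes were 14.7% and 9.83%. The median gene of this list had 10 regions, and 21.0% of all genes with 8 to 15 regions passed upward and 13.6% downward. Secreted class 3 semaphorins were found in both directions. Sema3a (chr5:13124822-13603485) had 0 in every SPOPmut library against 8, 7, 8 and 7 (difference −7.5 ± 0.279, SE; limma adjusted p = 9.8e-07), and Sema3e had 4, 3, 3 and 4 against 10, 9, 8 and 10, with a loss over its start. Sema3d, named because it goes against these, averaged 11.25 regions in SPOPmut and 9.25 in Control and passed upward. Sema6d had 19, 18, 19 and 17 regions in SPOPmut against 15, 10, 13 and 12, and the receptor gene Ephb2 had 8, 8, 10 and 7 against 13, 11, 15 and 15 (lost without Control replicate 4, limma adjusted p = 0.0525). Phosphodiesterases, which break down cyclic AMP, and phospholipases C passed 6 up and 5 down of 22 (27.3% and 22.7%). Their summed calls ran from 127 to 132 in SPOPmut and from 96 to 115 in Control. Plcb1 (chr2:134786164-135475258) alone gave 21, 20, 21 and 21 in SPOPmut and 6, 4, 6 and 5 in Control. Pde4d had 34, 35, 34 and 33 against 29, 24, 28 and 27, and Pde4b 14 in every SPOPmut library against 10, 9, 11 and 11. Plce1, with 1, 0, 0 and 1 against 4, 2, 3 and 4, and Plcl1, with 0 in every SPOPmut and 2 in every Control library, went down.

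Zinc handling, by which prostate epithelium accumulates zinc, split 3 up and 3 down of 15. Slc39a10, an importer, had 8 in every SPOPmut library against 5, 4, 6 and 5, whereas Slc39a11 had 29, 26, 29 and 30 against 39, 34, 40 and 41. In the retinoic acid list 1 of 16 passed upward and 2 downward. Rarb, a retinoic acid receptor gene (chr14:16430839-17082331), had 16, 17, 16 and 15 regions in SPOPmut and 27, 24, 27 and 27 in Control (difference −10.25 ± 0.832, SE; limma adjusted p = 0.000118). It had 10 lost and 1 gained region.

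Of 25 interferon, STAT and NF-kappa-B genes 1 passed in each direction (4% each), the one down being Nfkb1, with 12, 14, 14 and 14 regions in SPOPmut against 19, 16, 19 and 18. Of 19 cytokine genes 4 passed upward and 5 downward (21.1% and 26.3%, against 14.7% and 9.83% of all genes). Il15 (chr8:82331624-82403252) had 0 in every SPOPmut and 8 in every Control library, and Il33, an epithelial alarmin, had 17, 17, 17 and 16 against 21, 19, 20 and 21. Il6 had 3, 3, 3 and 2 in SPOPmut and 1 in every Control library. Cxcl1, a neutrophil attractant, had 8, 8, 8 and 7 against 6 in every Control library. Its direction depended on the assignment, the difference being −1 when regions within 10 kb of the gene body were counted for every gene there.

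In the cell cycle list 3 of 21 passed upward and 4 downward. Cdkn1a, which encodes the inhibitor p21, had 5 in every SPOPmut and 4 in every Control library, the additional region lying over its start, and E2f3, an activator of S phase genes, had 1 in every SPOPmut library against 4, 3, 4 and 3. The Cdkn1a difference was −1 with peaks of a signal of at least 400 and did not pass. Of 17 DNA repair genes 4 passed upward (23.5%, against 14.7% of all genes) and 1 downward (5.88%, against 9.83%). Prkdc, the DNA-dependent protein kinase, had 4 in every SPOPmut library against 1, 1, 2 and 2, and Xrcc5, its Ku80 partner, had 3, 3, 4 and 3 against 2, 1, 1 and 1 (lost without SPOPmut replicate 3, limma adjusted p = 0.0521). Ribosomal protein genes, whose starts are open in most cells, passed 2 up and 0 down of 17 (1 down at an unadjusted limma p under 0.05 and with the variance limit).

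Some genes had called regions in one genotype and none in the other. No region was called in any Control library at 51 tested genes, 49 of which passed upward, and none in any SPOPmut library at 112, 103 of which passed downward. Adam28, a membrane metalloprotease (chr14:68604998-68655889), had 6 regions in every SPOPmut and 0 in every Control library, although it lies on the chromosome with the largest downward shift among the autosomes. Ceacam12, of a family of cell adhesion proteins, had 5 in every SPOPmut library and Tmem45a2 had 5, 6, 6 and 6, both against 0. In the other direction Rerg, a RAS-like growth inhibitor (chr6:137054825-137170496), had 0 in every SPOPmut library and 14, 12, 14 and 13 in Control. Xylt1, which starts glycosaminoglycan chains on proteoglycans, had 0 against 10, 7, 10 and 10 in Control, Plxdc2 had 0 against 8, 8, 8 and 7, and Zfp462 (chr4:54944491-55083563) had 0 against 9, 8, 9 and 9.

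Just below the largest differences, at ranks 11 to 20 in each direction, stood genes of varied function. Upward, Ankrd44, a phosphatase subunit, had 20, 19, 20 and 20 regions in SPOPmut against 11, 10, 12 and 13, and Kcnq1, a potassium channel, had 21, 21, 23 and 22 against 13, 12, 15 and 15. Enpp2, the enzyme autotaxin, had 16 in every SPOPmut library against 9, 8, 9 and 8, and Eya2, a transcriptional coactivator, had 19, 18, 18 and 18 against 12, 10, 11 and 10. Downward, Pdzrn3, a ubiquitin ligase, had 6, 5, 6 and 6 against 15, 14, 14 and 15. Cadps, a factor of vesicle release, had 4, 5, 6 and 2 against 13, 13, 13 and 14, with a loss within 1 kb of its start. Ldlrad4, an inhibitor of TGF-beta signalling, had 5, 6, 7 and 5 against 14, 13, 15 and 15. In all 7 the libraries of the genotypes did not overlap, but these genes were chosen for their large differences. The same held for 2445 of the 2627 called genes, against 23.1% of all genes tested.

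A net count can also hide exchange. Gained and lost regions stood together at 381 genes, of which 59 passed upward, 39 downward and 283 in neither direction. Rad51b, a recombination repair gene (chr12:79297282-79848260), had 7 gained and 5 lost regions, and its counts were 65, 64, 66 and 64 in SPOPmut and 65, 60, 65 and 64 in Control (limma adjusted p = 0.537). Abcc4, an exporter of cyclic nucleotides, had 3 gained and 6 lost regions and also did not pass (difference −2.75, limma adjusted p = 0.153). Its call depended on the setting: Abcc4 passed downward with equal list length (−5) and with a signal of at least 400 (−6.25), and upward with the chromosome rate subtracted (2.38, limma adjusted p = 0.0392). Macrod2 had 8 gained and 3 lost and passed upward with 45, 41, 45 and 39 against 33, 31, 34 and 31, but not after the rate of chromosome 2 was subtracted (2.47).

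The 8 DHT libraries, which share no library with the EtOH comparison, gave the same direction at most of these places. Of the 3980 regions gained in EtOH, 1836 (46.1%) were also present in all 4 SPOPmut libraries and absent from Control under DHT, against 5.01% of all tested regions, and 0 separated the opposite way. Of the 3538 lost, 1642 (46.4%) were lost in full under DHT as well, against 4.1% of all tested regions, and again 0 went the opposite way. Among the 1575 genes with more regions in EtOH, 91.5% had a higher SPOPmut mean under DHT, against 39.9% of all genes. In 57.0% the DHT groups did not overlap in that direction, against 13.1% of all genes. Among the 1052 genes with fewer regions, 90.6% were lower in SPOPmut under DHT, against 30.8% of all genes. In 56.3% the DHT groups did not overlap in that direction, against 9.10% of all genes. The labels do not say whether the EtOH and DHT libraries of a genotype come from the same organoid line, so a shared source cannot be told apart from a shared genotype effect.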

How the data were processed

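ATAC-seq peak lists of 8 libraries of mouse prostate organoids were analysed. The submitters' processing notes name the build mm10, the aligner Bowtie2 (2.3.4.1), SAMtools (1.8) and the peak caller Genrich (version not stated). The authors deposited for each peak a signal (area under the caller's significance track, above 200 in every list), the −log10 p at its summit and a score with an upper limit of 1000, none of which was compared between lists. Lists carry no counts, so list length stands in for depth. Genes came from a RefSeq table of GRCm38.p6, the same build. Regions were assigned to gene bodies within 100 kb, starts being used for distances only. Counts per gene were fitted with limma 3.58.1 (R 4.3.3, lmFit and eBayes with trend, tested on simulated data), Benjamini-Hochberg adjusted over 10704 genes. Single values had two-sided exact permutation tests (SciPy 1.17.1, Python 3.11.15). Figures used Matplotlib 3.10.9.

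The comparison, the 42 gene lists and the rule for named genes were chosen with earlier results of these data known. That rule takes, in each list, the 3 largest changes per direction past the threshold, plus ranks 11 to 20, 6 genes per direction absent from one genotype, 6 with the most gained and lost regions, the 3 longest runs and 3 gene-end regions per direction, and a fixed set (Spop, Foxa1, Trp63 and others). It gave 195 genes, of which the text names most, after leaving out a few genes that are not reported here. Replicate numbers did not pair libraries across genotypes (correlations of same-numbered deviations −0.00271 to 0.0562). Signal tracks were not used here. Alternatives are given in the closing section.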

Additional observations from a re-analysis of the deposited data

Results flagged for a closer look

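A library stood apart from the other 3 of its group, by its gap relative to the group's range, in 99 cases. Chance flags about 1 in 20 groups, and small whole numbers with 3 equal values and 1 other always meet the criterion, so most cases are a difference of 1 region. By chromosome, 1 SPOPmut library was high on chromosome 7 (6.24% of called regions) and 1 on chromosome 10 (5.03%), and 1 Control library was low on chromosome 19 (3.30%). The other 96 cases are counts of called regions at named genes.

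In SPOPmut, the lowest library stood apart with called regions numbering 2 at Itga8, Il6, Csf2 and Krt8, 3 at Pard3b and Krt5, 4 at Scg2 and Ccnd2, 5 at Ly6a, Fat4, Trim24, Pdzrn3, Tmem45a2 and Plac8, and 7 at Smad1 and Cxcl1. Further lowest SPOPmut libraries had 8 at E2f8, 9 at Maf, Klf5, Irs2 and Frmpd4, 12 at Tfap2c and Nfkb1, 13 at Klf10, and 16 at Tead1 and Il33. Further lowest SPOPmut libraries had 18 at Myc, 19 at Ankrd44, 20 at Esr1 and Plcb1, 21 at Zfp36l2 and Zfp608, and 24 at Grhl2. Further lowest SPOPmut libraries had 27 at Tmprss2.

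In SPOPmut, the highest library stood apart with called regions numbering 1 at Dcn, 2 at Zeb1 and Dek, 4 at Plcb4 and Xrcc5, 6 at Krt18 and Ncoa2, and 12 at Smad2. Further highest SPOPmut libraries had 13 at Lrp5 and Sufu, 16 at Klf6 and Fat1, and 19 at Eya2.

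In Control, the lowest library stood apart with called regions numbering 0 at Cdkn1c, 1 at Thy1 and Lamc3, 2 at Smarca4, Gata2 and Slc30a3, 3 at Ly6a, Sox21 and Krt5, and 4 at Numb and Hoxb13. Further lowest Control libraries had 5 at Rdh10, 7 at Tfap2c, Notch3, Fat4, Xylt1 and Plxdc2, 8 at Bmp2 and Zfp462, 9 at Klf4, and 10 at Grhl3, Smad1, Amotl1 and Pcdh19. Further lowest Control libraries had 12 at Tead1, 14 at Ank, 16 at Klf6 and Nfia, 17 at Fat1, and 18 at Zfp36l2. Further lowest Control libraries had 24 at Rarb, and 34 at Zmiz1.

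In Control, the highest library stood apart with called regions numbering 2 at Sox13 and Xrcc5, 3 at Spry1, Col4a1 and Slc30a1, 4 at Steap4 and Tead3, 5 at Ncoa3, and 6 at Fabp5. Further highest Control libraries had 7 at Twist2 and Ccnd2, 9 at Stk3, 14 at Cadps, 15 at Fam3b, and 18 at Sema5a. Further highest Control libraries had 19 at Esr1, and 20 at Met.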

How the results depend on the processing

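Counts of gained and of lost regions stayed within 1.5 times under equal list length, a signal of at least 400, a 100 bp overlap and without each library. Calls at chromosomes 18 (equal length, signal) and Y (without a SPOPmut library) were lost. Chromosome shares that passed kept their direction. The share of called regions, gene end, which did not pass (−0.176 percentage points), was 0.0310 with equal list length, 0.0995 without SPOPmut replicate 3 and 0.201 without Control replicate 2, and the share of chromosome 19, also not passing, was 0.00304 with equal list length. With equal list length the share of called regions, inside gene bodies, passed (difference 0.609 percentage points), as did the share of called regions, outside genes (−0.640). Genes with fewer regions in SPOPmut numbered 1812 with calls taken as a share of the library total and 1937 with the chromosome rate subtracted, against 1052. Genes with more numbered 2224 and 2071, against 1575. The upward share of calls was 55.1% and 51.7% in these fits, against 59.95%, and the cause was not tested. Without 1 library the counts ran from 1448 to 1704 upward and from 967 to 1501 downward, the last without Control replicate 2. The exact permutation test called 0 genes upward and 0 downward because of its smallest p. With the replicate number as a replicate block, 1631 genes had more and 1126 fewer regions, though the numbers do not pair libraries.

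Of the 1575 upward and 1052 downward calls, 804 and 472 were shared with the fit on peaks of a signal of at least 400, and 1154 and 879 with that on equal list length. Among named genes 52 calls were lost at the higher signal, including Ncoa3, Ehf, Cd44, Krt15, Ly6a, Zeb1, Dcn, Dek, Nfia, Nfic, Tfap2c, Fat1, Fat4 and E2f3, and 19 with equal list length. Foxa2, Gata2, Boc and some others could not be tested at the higher signal. Directions turned for a few named genes. With a signal of at least 400 the differences were 2.25 at Ncoa2, 0.25 at Fkbp4, 1.5 at Smad2, 2 at Itgb6 and −1 at Cdkn1a. Cand1 had 0.25 both within 25 kb and with 10 kb either side of the gene body, where Cxcl1 had −1. With the chromosome rate subtracted the differences were −0.79 at Ehf, −1.24 at Cd44, −1.30 at Grhl2, −0.80 at Wnt7b, −2.27 at Rad51b and 2.38 at Abcc4, and the cause of these turns was not tested. With the variance limit, 6 of 184 called named genes did not pass: Fos, Maml2, Irs1, Itgb6, Magi1 and Robo2. Depth is unknown, so an absent call does not show closed chromatin.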
